A study of Gallus gallus with 3 samples.

Results

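The genes described here are markers of blood vessels and blood-derived immune cells. They were followed in the vestibular crista, the sensory patch at the base of each semicircular canal. Which cells of the crista held their transcripts was not tested. They are 5 genes of endothelial cells (*PECAM1*, *CDH5*, *KDR*, *VWF* and *EGFL7*) and 3 of immune cells (*PTPRC*, *CD74* and *CSF1R*). They were taken by symbol from the gene names that come with each library, and all 8 matched 1 of the 30108 Ensembl genes, of which 15097 carry a symbol. The series holds 3 RNA libraries of the chicken embryo. They came from 1 type I hair cell at E20, 1 type II hair cell at E19 and whole ampullary cristae at E16. The cristae were dissected from 22 embryos and pooled. From each hair cell the cytoplasm was aspirated through the patch pipette after recording. The nucleus was then held at the pipette tip and the cell was detached from the tissue. No genotype or drug treatment distinguishes the libraries, but the organ came from younger embryos than the cells. The labels give the same low-input cDNA kit for every library, whereas the study's methods give different kits and library preparations for the cells and for the organ. The methods also give single-end reads for the cells and paired-end reads for the organ. Each condition has 1 library, so the conditions were not tested against each other and no p-value is given.

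Endothelial cells line every vessel and hold together through homophilic adhesion proteins at their contacts. They grow in response to vascular endothelial growth factor, which they sense through receptor tyrosine kinases. Macrophages are the phagocytes that settle in tissues during development, where colony stimulating factor signalling keeps them alive, and antigen-presenting cells display peptides on MHC class II molecules.

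The files give an estimated number of reads for each gene, which need not be whole, and TPM, the level per effective gene length within a library, which allows genes to be compared. The libraries hold 10779664 (type I), 11943061 (type II) and 67428006 (whole crista) estimated reads, and detection meant at least 1 estimated read. By this rule 2340 and 2381 genes were detected in the hair cells and 18001 in the crista. The intervals given are exact Poisson 95% intervals of the rounded reads. They leave out every error but that of counting, since PCR copies were not told apart by molecular identifiers. Of 16 hair-cell markers with a symbol, 8 were read in the type I cell, 7 in the type II cell and all 16 in the crista. At a threshold of 3 reads the count was 7 in each hair cell. Both hair cells also held reads of 4 of 10 mesenchymal genes. Of these *COL1A1*, a fibrillar collagen, had the most, with 7113 and 5292 reads. Also read were *COL1A2* (3221 and 2404), *LUM* (93 and 79) and *POU3F4* (48 and 36). The rest of the list, *DCN* and *COL3A1* among them, had 0 reads in both cells. Of all genes detected in the crista, 85.8% had no read in either cell. The part of RNA from other cells in these libraries was not tested.

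All 8 endothelial and immune genes were read in the whole crista, and none had a read in either hair cell, as held for 85.8% of all crista genes. In the crista they held 37818 estimated reads together, 0.0561% of the library. The immune genes accounted for 22003 of these reads and the endothelial genes for 15815. Levels ran from 3.71 TPM for *PTPRC* to 216 TPM for *CD74*, a 58.3-fold range. The median of the 8 was 31.0 TPM, beside 8.54 TPM over all genes detected in the crista. That reference includes genes without a symbol, whereas all 8 carry one, and a median over genes with a symbol was not computed. In a pooled organ, fewer cells of a type and less RNA per cell cannot be told apart, so these levels give no number of cells.

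**Figure D1:**
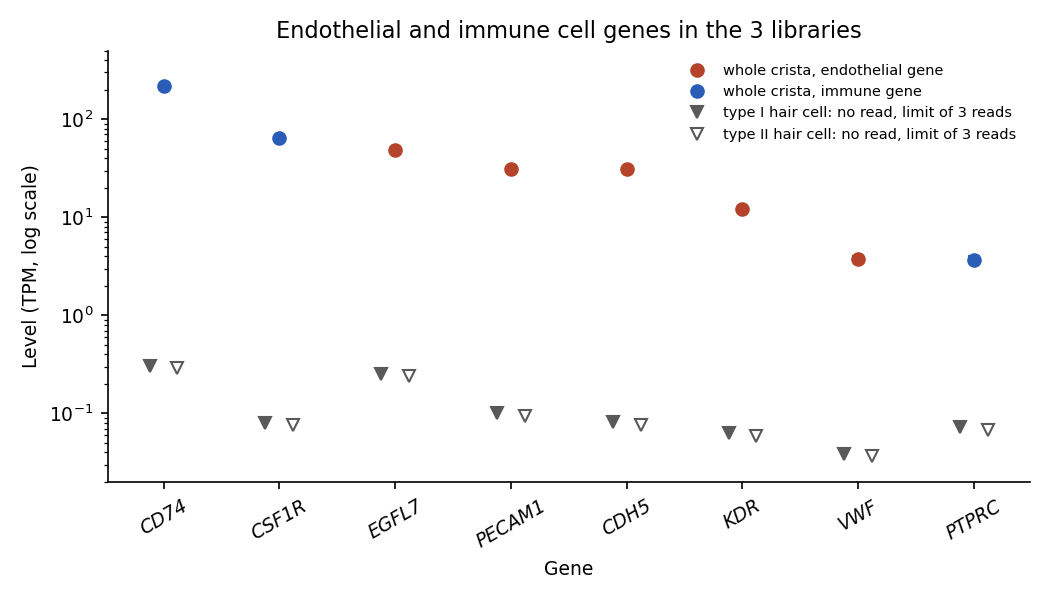
Level of each gene (TPM, log axis) in the 3 libraries. Circles are the whole crista with the 95% counting interval, which is narrower than the symbol, and triangles are the limit of 3 reads for a hair cell in which the gene had no read. In the crista *CD74* stood highest at 216 TPM and *PTPRC* lowest at 3.71 TPM, and each limit in the hair cells lay below 0.31 TPM.

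Among the endothelial genes, the adhesion molecules of the cell contacts stood close together. *PECAM1* (ENSGALG00010029625, chromosome 18, 7472370 to 7501074 on GRCg7b) encodes an immunoglobulin-family protein of endothelial junctions that also occurs on leukocytes and platelets. No read was counted in either hair cell (0 and 0), and the crista had 4045 estimated reads (95% interval 3921 to 4172), or 31.1 TPM. *CDH5* (ENSGALG00010007270, chromosome 11, 11164699 to 11194052), VE-cadherin of the adherens junction, had 0, 0 and 5513 reads (5368 to 5661), or 30.8 TPM. The crista levels of this pair did not differ beyond counting error, with a TPM ratio of 1.01 (95% interval 0.968 to 1.05). The RefSeq interval of *PECAM1* overlaps that of *TEX2* by 588 bases. *TEX2* itself had no read in the hair cells and 5270 in the crista, and how shared reads were placed is not given in the sources used here.

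*KDR* (ENSGALG00010013498, chromosome 4, 64703991 to 64731765), the main receptor of vascular endothelial growth factor A on endothelium, had 0 reads in the type I cell, 0 in the type II cell and 2753 (2651 to 2858) in the crista. Its crista level of 12.1 TPM lay below that of *CDH5*, which was 2.54 times higher (95% interval 2.43 to 2.66). *VWF* (ENSGALG00010024534, chromosome 1, 74643818 to 74782490) encodes the large glycoprotein to which platelets bind at a wound in mammals. It had 0, 0 and 1409 reads (1336 to 1485), and at 3.8 TPM it was the lowest of the endothelial genes.

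*EGFL7* (ENSGALG00010028919, chromosome 17, 8352238 to 8366866), a small protein secreted by endothelial cells, had 0 and 0 reads in the hair cells and 2094 (2005 to 2186) in the crista. It had fewer reads than *PECAM1*, *CDH5* and *KDR*, but per length it was the highest of the endothelial genes at 48.2 TPM, 12.7 times *VWF* (95% interval 11.9 to 13.6). The microRNA gene *MIR126* lies within its RefSeq interval and has no symbol of its own in the files. Of the 3 libraries, the crista was thus the one in which these 5 genes were read, over a 12.7-fold range of levels.

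The immune genes were spread more widely. *PTPRC* (ENSGALG00010012352, chromosome 8, 2035004 to 2116225), or CD45, is the tyrosine phosphatase carried by leukocytes of every lineage. The crista had 615 of its reads (567 to 666), the fewest of the 8 genes, and the hair cells 0 and 0. At 3.71 TPM it could not be told apart from *VWF* within counting error, with a ratio of *VWF* to *PTPRC* of 1.02 (95% interval 0.93 to 1.13).

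*CSF1R* (ENSGALG00010016804, chromosome 13, 12879074 to 12896912), the receptor on which macrophages depend for survival, had 0 and 0 reads in the hair cells and 11866 (11653 to 12081) in the crista, more than any other of the 8. Its level was 64.4 TPM, 17.4 times that of *PTPRC* (95% interval 16.0 to 18.9). *CD74* (ENSGALG00010013450, chromosome 13, 12750532 to 12754143), the invariant chain that guides MHC class II molecules to the endosome, had 0, 0 and 9522 reads (9332 to 9715). At 216 TPM it was the highest of the 8 and stood 3.36 times above *CSF1R* (95% interval 3.27 to 3.45). It ranked 796 among the 18001 genes detected in the crista, *CSF1R* 2668, and *PTPRC* 10930.

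*CD74* and *CSF1R* lie on the same chromosome, 124930 bases apart with 7 RefSeq genes between them. The nearer neighbour of *CSF1R* is *PDGFRB* (12851433 to 12876615), the receptor of pericytes, 2458 bases away. *PDGFRB* had 652 reads in the crista, and its 3.22 TPM lay below that of *CSF1R*, with a ratio of *CSF1R* to *PDGFRB* of 20.03 (95% interval 18.5 to 21.7).

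Ordered by crista TPM, the 8 genes were *CD74*, *CSF1R*, *EGFL7*, *PECAM1*, *CDH5*, *KDR*, *VWF* and *PTPRC*. Of the 7 neighbouring pairs in this order, 5 had a ratio clear of 1 by counting error. The pairs *PECAM1* and *CDH5*, and *VWF* and *PTPRC*, did not. With reads per kb of full length in place of effective length, *PECAM1* and *CDH5* changed places.

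The count of unread genes among the 8 was set against the other genes of the crista. Of the 18001 genes detected there, 87.6% had no read in the type I cell, 87.3% none in the type II cell and 85.8% none in either. A gene without a read was therefore the usual case, and 8 of 8 was close to this background. The share fell with the level in the organ. It was 91.8% of the 5015 genes at 1 to 10 TPM, where *VWF* and *PTPRC* lie, and 83.1% of the 6788 genes at 10 to 100 TPM, which hold *CSF1R*, *EGFL7*, *PECAM1*, *CDH5* and *KDR*. Among the 1762 genes of 100 TPM and over, with *CD74* among them, 56.2% had no read in either cell.

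**Figure D2:**
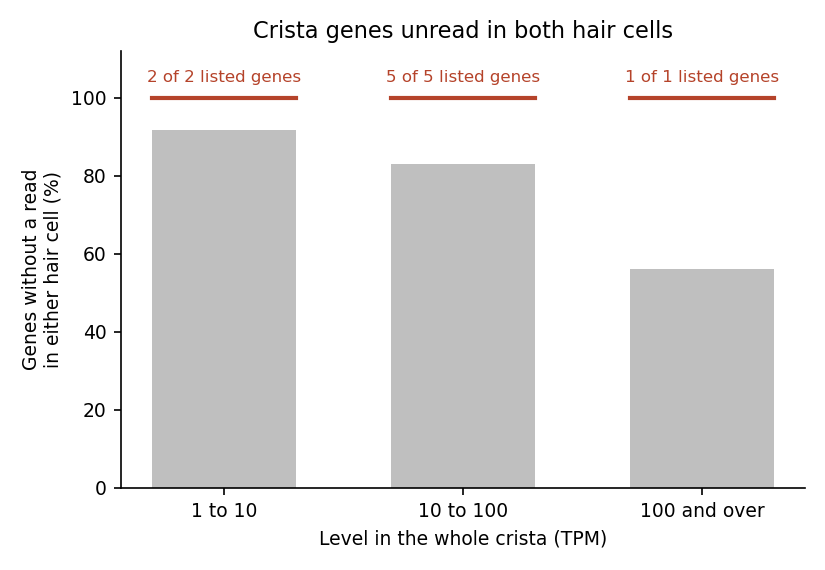
Share of whole-crista genes without a read in either hair cell (bars, %), by level in the crista (TPM). The bars stand at 91.8%, 83.1% and 56.2%, and the red lines mark the endothelial and immune genes of each band, of which all 2, 5 and 1 had no read.

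Genes that every cell uses were also among those without a read. Of 12 such genes with a symbol, 6 were read in the type I cell and 5 in the type II cell. At a threshold of 3 reads the count was 5 in each. *YWHAZ*, an adaptor protein of most cells, stood at 1283 TPM in the crista and had 0 reads in both hair cells. The depth of the hair cell libraries was expressed as the reads each gene would have had at its crista TPM. These came to 2112 (type I) and 2226 (type II) for *CD74*, 2405 and 2561 for *CSF1R*, and 155 and 165 for *PTPRC*. A gene with no read was set at a limit of 3 reads per library, a one-sided limit that is lower than 3.69, the upper end of the 95% interval of 0 reads. It corresponds to 0.308 TPM for *CD74* and 0.0390 TPM for *VWF* in the type I hair cell. Against these limits *CSF1R* was at least 802-fold lower in the type I and at least 854-fold lower in the type II library than in the crista. For *PTPRC* the same bounds were at least 51.7-fold and at least 55.0-fold, the smallest of the 8. Scaled to library size (CPM) instead of TPM, the bounds for *PTPRC* were 32.8-fold and 36.3-fold. All these bounds compare the libraries, between which kit, read layout, age and sample type cannot be told apart. They set no limit on the transcript present in a cell before amplification.

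Other genes of the same cells were followed in lists. Most genes with a symbol were read in the crista, so a high crista count of a list marks nothing particular to it. Of all 15097 genes with a symbol, 10728 were read in the crista and in neither hair cell. Those also read in a hair cell come on top, and their number was not computed. Of all 30108 genes, with or without a symbol, 18001 were read in the crista. Of 19 endothelial receptors and ligands with a symbol, 18 were read in the crista, with a median of 5.92 TPM. The highest were the semaphorin and growth factor co-receptor *NRP1* (11205 reads, 60.6 TPM), the TGF-β co-receptor endoglin, *ENG* (3256 reads, 32.4 TPM), and *NRP2* (5203 reads, 24.5 TPM). Neuropilins also occur outside endothelium. The other receptor tyrosine kinases for vascular endothelial growth factors were lower in TPM than *KDR*, *FLT4* of lymphatic endothelium at 7.66 and *FLT1* at 2.0. *KDR* exceeded them 1.59-fold (95% interval 1.5 to 1.67) and 6.06-fold (5.41 to 6.81). Their ligands *VEGFA*, *VEGFC* and *VEGFD* had 333, 187 and 628 reads, at 5.92, 2.39 and 6.51 TPM. The apelin receptor *APLNR* was listed at 0. In the hair cells 1 gene of this list was read, the angiopoietin *ANGPT1*, with 0 reads in the type I cell, 17 (9.90 to 27.2) in the type II cell and 555 in the crista.

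Of 22 endothelial junction and surface genes with a symbol, 21 were read in the crista (median 4.60 TPM). They were led by *RAMP2*, the partner of the adrenomedullin receptor, at 259 TPM, the adhesion molecule *VCAM1* at 211 TPM and *JAM2* of tight junctions at 45.1 TPM. Which cells of the pooled organ held these transcripts was not tested. The sialomucin *EMCN* stood at 34.7 TPM, near *PECAM1* and *CDH5*, whereas *CLDN5*, the claudin of tight vessels, stood at 3.51 TPM (50 reads). *SELE*, an adhesion molecule of inflamed endothelium, was listed at 0. The glucose transporter *SLC2A1*, found in many cell types, was the one gene of this list with reads in the hair cells. It had 1673 (type I), 1591 (type II) and 1020 (crista) reads, or 54.7, 51.9 and 7.75 TPM.

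All 16 endothelial transcription factors with a symbol were read in the crista (median 11.4 TPM). The highest were *KLF2*, a factor induced by flow, at 122 TPM, the venous factor *NR2F2* at 36.8 TPM and the Notch target *HEY1* at 34.0 TPM. The ETS factors *FLI1* and *ERG* had 2500 and 412 reads there and none in the hair cells. The 5 genes of this list with reads in a hair cell were *ETS1* (208 in type I, 121 in type II), *KLF2* (21 and 7), *GATA2* (9 and 3), *SOX17* (0 and 2) and *SOX18* (0 and 1). Only *ETS1* passed 100 reads, with 10.4 (type I), 6.10 (type II) and 10.1 (crista) TPM. Several of these factors act in other tissues too. Pericyte and smooth muscle genes, which mark the cells around the vessel wall, were all read in the crista (10 of 10, median 14.8 TPM). The smooth muscle actin *ACTA2* reached 206 TPM, the signalling regulator *RGS5* 46.3 TPM and the channel *KCNJ8* 33.5 TPM. In the hair cells *MCAM*, an adhesion molecule of vessel walls, had 3 reads (type I) and 1 read (type II), and no other gene of this list had any.

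**Figure D3:**
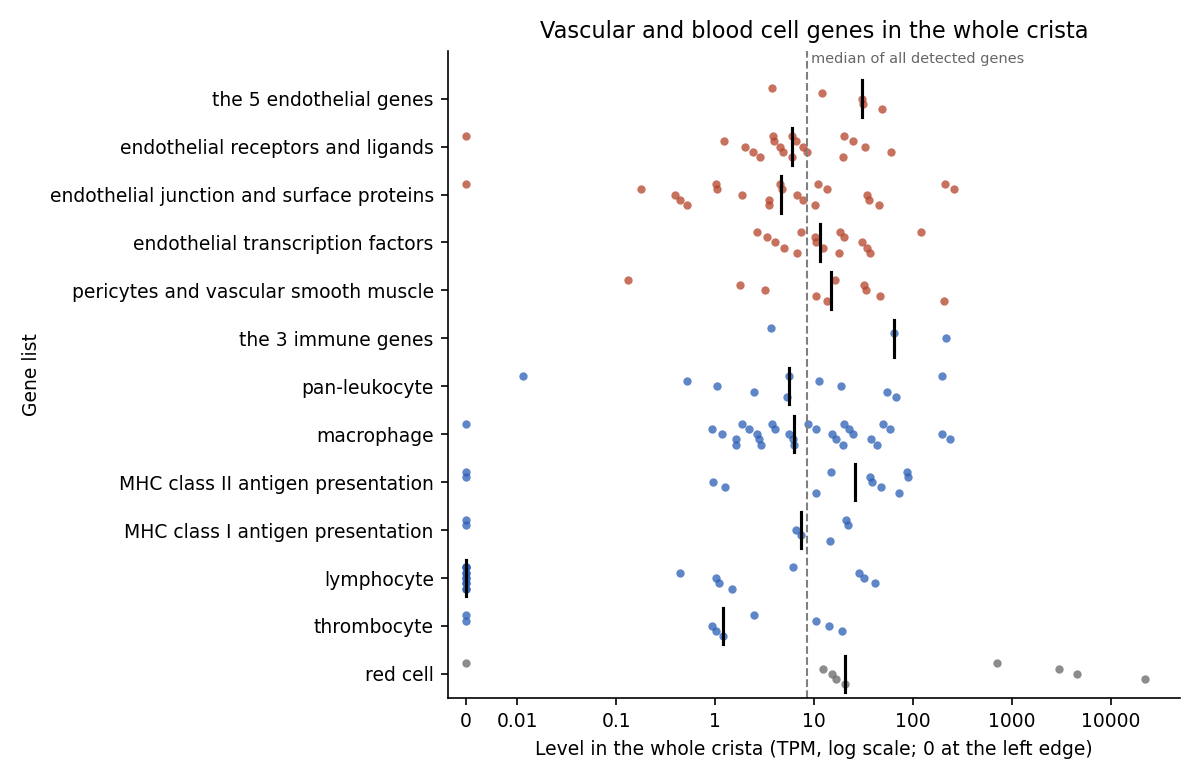
Levels in the whole crista (TPM, log axis, genes at 0 drawn at the left edge) of vascular, immune and blood cell genes by list. Each point is a gene, black bars are list medians and the dashed line is the median of all detected genes, 8.54 TPM. The lymphocyte list has its median at 0, with 11 of 19 genes listed at 0, and the red cell list reaches 22447 TPM.

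Immune genes beyond the 3 were followed in the same way. All 11 genes of leukocytes in general with a symbol were read in the crista (median 5.55 TPM). None was read in the hair cells, beside 85.8% of all crista genes without a read in either. *VAV1* had only 1 read in the crista, and the crista count was 10 at a threshold of 3 reads and 9 at 1 TPM. *ARHGDIB* stood at 197 TPM, *LAPTM5* of the lysosomal membrane at 66.7 TPM and the actin bundler *LCP1* at 54.1 TPM. All 3 exceeded *PTPRC*. Of 29 genes in the macrophage list, which also holds ligands of *CSF1R*, 28 were read in the crista (median 6.31 TPM). *CTSB*, a lysosomal protease of most cells, reached 235 TPM, *LY86*, a partner of Toll-like receptor family proteins, 199 TPM, and the ligand *IL34* 59.1 TPM. The transcription factors *SPI1* and *IRF8*, which direct myeloid development, had 1775 and 1697 reads. The complement genes *C1QA*, *C1QB* and *C1QC* had 622, 762 and 1223. *CTSB* was the only macrophage-list gene read in the hair cells, with 24955 and 31517 reads.

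Of the ligands of *CSF1R*, *IL34* had 2363 reads in the crista, while *CSF1* was listed at 0. The level of *CSF1R* was 1.09 times that of *IL34* (95% interval 1.04 to 1.14). By the same limit of 3 reads, a count of 0 in the crista allows up to 0.0445 CPM (reads scaled to library size).

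Of 12 genes of MHC class II presentation, 10 were read in the crista (median 25.8 TPM). None was read in the hair cells, beside the same 85.8% of all crista genes. The protease *CTSH* stood at 89.1 TPM, the class II β chain *BLB2* at 86.4 TPM and the thiol reductase *IFI30* at 71.6 TPM. *BLB1*, a near copy of *BLB2*, had 47.1 TPM, and the way the counting divided reads between them was not examined. *CD74* lay 2.50-fold above *BLB2* (95% interval 2.38 to 2.64). *CIITA*, the class II transactivator, was listed at 0, as was *DMB1* beside its neighbour *DMB2* with 227 reads. For MHC class I, 5 of 7 genes were read (median 7.44 TPM), led by *BF2* at 22.3, *BF1* at 21.0 and *B2M* at 14.4 TPM, and *BF1* and *BF2* are likewise close copies. *TAP1* and *NLRC5* were listed at 0. *TAPBP* of peptide loading had 9 reads (type I) and 1 read (type II).

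Of 19 lymphocyte genes with a symbol, 8 were read in the crista. *GATA3*, which also acts in the developing inner ear, had 3518 reads (41.5 TPM) and 3 in the type II hair cell. The CD3 subunits of the T-cell receptor complex, *CD3D* and *CD3E*, had 1399 and 3172 reads, at 31.8 and 28.7 TPM, both above *PTPRC*. The other 5 genes read lay below 6.1 TPM. Among them was *CD247* of the same complex, with 36 reads (0.437 TPM). *CD4*, *CD8A*, *ZAP70*, *LCK*, *PAX5* and *RAG1* were among the 11 listed at 0. Of 9 thrombocyte genes, 7 were read (median 1.21 TPM). The matrix protein *THBS1*, made by many cells, had 19.3 TPM in the crista. In each hair cell it had 35 reads, or 0.663 (type I) and 0.62 (type II) TPM. In the crista the integrin *ITGB3* had 14.2 TPM and the coagulation factor *F13A1* 10.6 TPM, and the integrin *ITGA2B* was listed at 0.

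Red cell genes reached the highest levels of the vascular and blood lists. Of 9 red cell genes with a symbol, 8 were read in the crista, and *HBA1*, a globin chain, had 274665 reads. Its 22447 TPM was followed by *HBBA* at 4599 and *HBAD* at 2985 TPM. None of the red cell genes had a read in a hair cell, beside 85.8% of all crista genes. That share was 83.1% of genes at 10 to 100 TPM and 56.2% at 100 TPM and over.

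Over the vascular, leukocyte and thrombocyte lists together, without the 8 genes and the red cell list, 153 genes had a symbol and 133 were read in the crista. A read in the crista was the usual case for genes with a symbol. Of all 15097 such genes, 10728 were read in the crista and in neither hair cell, a count that leaves out those also read in a hair cell. The type I cell had reads of 8 of the 133 listed genes and the type II cell of 12, and the 8 were among the 12. Only *CTSB*, *SLC2A1* and *ETS1* reached 100 reads in a hair cell. Of the 133 crista genes, 121 had no read in either cell, or 91.0%. The share was 85.8% over all crista genes and 83.1% over those with a symbol. By crista level it was 91.8% at 1 to 10 TPM, 83.1% at 10 to 100 TPM and 56.2% at 100 TPM and over. The lists were not matched to these genes by level. Supporting cell genes were read in the hair cells in 4 (type I) and 3 (type II) of 11 cases, and in 3 in each at a threshold of 3 reads.

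**Figure D4:**
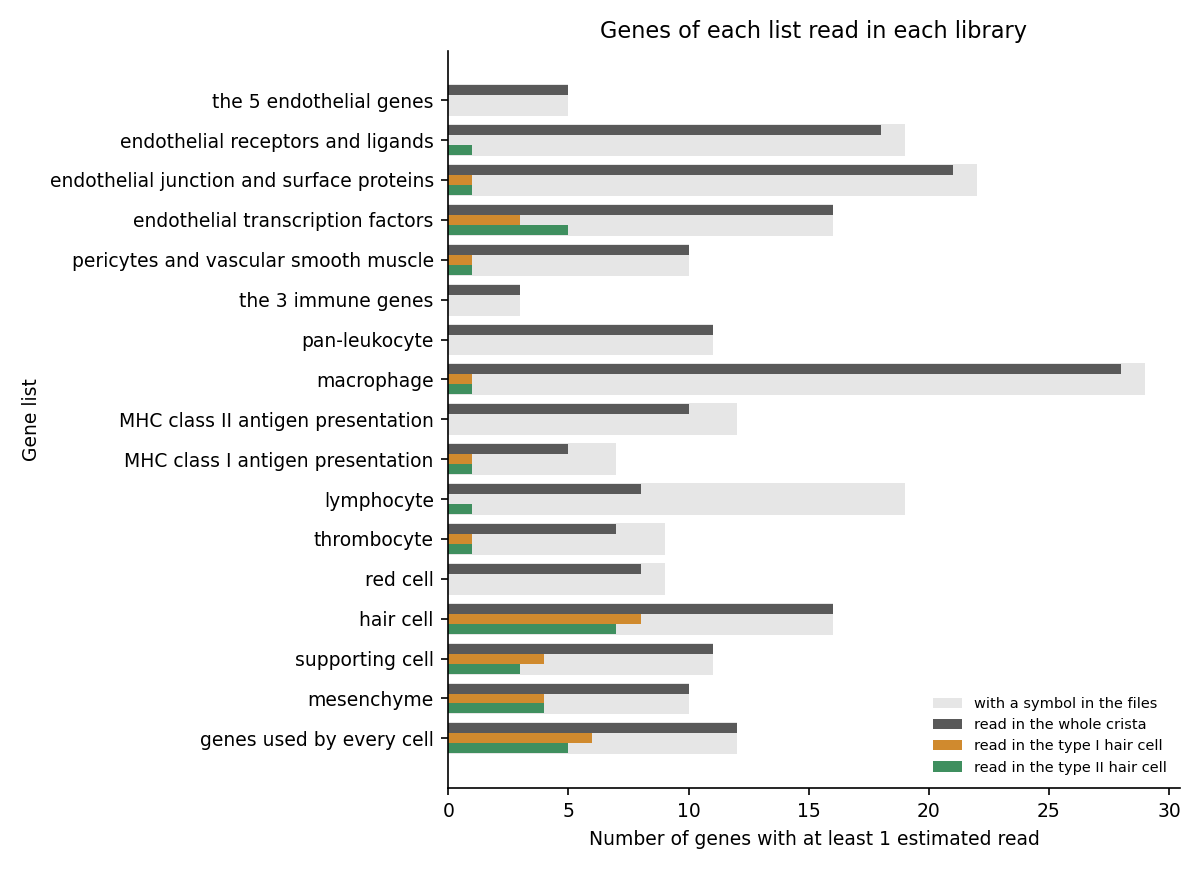
Number of genes of each list with at least 1 estimated read in the whole crista and in each hair cell (type I, type II), over the number with a symbol (light bars). The 8 endothelial and immune genes, the leukocyte, MHC class II and red cell lists have no bar for a hair cell, and the hair cell list has 8 and 7. Of all crista genes, 85.8% had no read in either hair cell.

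By the distance of log2(TPM + 1) over the 3 libraries, the genes most like each of the 8 had no read in the hair cells and nearly the same crista level. In all, 10728 named genes were read in the crista, at whatever level, and in neither hair cell. All 24 genes found lay within a distance of 0.00323. They included *NEPRO*, *WEE1* and *NOL12* for *PECAM1*, *GFER*, *LANCL2* and *APBB1* for *CDH5*, *C23H1ORF109* and *PACSIN1* for *KDR*, and *PTGER4*, *EPX* and *FANCM* for *VWF*. For *EGFL7* they were *FHL1*, *DTNBP1* and *RNF103*, for *PTPRC* *SBSPON*, *BAHD1* and *CYTIP*, for *CD74* *VPS4A*, *CHMP2B* and *HMGB3*, and for *CSF1R* *EIF2D*, *FADS1* and *SLIT3*. With 3 libraries this likeness rests on the crista value alone, and none of the 8 was nearest to another of the 8.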

How the data were processed

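Chicken RNA libraries of a type I hair cell, a type II hair cell and pooled whole cristae were used, grouped by the labels' cell type. The authors deposited estimated counts of reads (NumReads) and TPM per Ensembl gene, with gene length and effective length. The submitters' processing notes name DRAGEN, bcl2fastq 2.20.0.422 and the GRCg7b genome. Deposited values were used unchanged. TPM of a limit of 3 reads came from each gene's effective length. Symbols came from the deposited gene names, and positions from the RefSeq annotation of GRCg7b. Intervals are exact Poisson, or exact for a ratio of Poisson counts. Genes named are the 8, the 3 nearest to each, and for each vascular, immune and blood list the 3 highest in crista TPM and any read in a hair cell. The rule also covered the hair cell, supporting cell, mesenchyme and every-cell lists, which are given here by counts. *COL1A1*, *YWHAZ* and other genes outside this were picked with their values in view. The genes and lists were chosen with earlier results of these data known. No gene was filtered. The planned sequence description was not run, and 1 of the nearest genes is not reported here. Alternatives changed the detection threshold, the scaling and the gene set. The interval code was tested on simulated data. The software was scipy 1.17.1 for intervals, pandas 2.3.3 and numpy 2.4.6 for tables and matplotlib 3.10.9 for plots, under Python 3.11.15.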

Additional observations from a re-analysis of the deposited data

How the results depend on the processing

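The number of the 8 genes detected was 8 in the crista and 0 in each hair cell at any read above 0, at 3 or 10 reads and at 1 TPM. With 0 reads of each gene in the hair cells, none of these thresholds could change the hair cell counts. At 10 TPM, *VWF* and *PTPRC* dropped out, leaving 6 in the crista. The share of the crista library held by the 8 genes was 0.0561% of reads and 0.0411% of TPM. The share of crista genes without a read was, for crista genes with at least 10 reads, 86.4% (type I), 86.2% (type II) and 84.6% (both), and for genes with a symbol 84.8%, 84.6% and 83.1%. The bounds on the fold between crista and hair cell became 0.587 to 0.821 times as large with CPM (reads scaled to library size), 0.560 to 0.767 times with CPM computed without mitochondrial genes, and 0.921 to 0.929 times when scaled by the median ratio of genes with at least 10 reads in both libraries. The smallest bound was 31.3-fold, for *PTPRC*. With TPM computed without mitochondrial genes, *CD74* stood at 222 TPM. The counts of the lists stayed within 1.5 times in 186 of 204 alternatives, and the 18 others were all counts of a hair cell. The 186 include hair cell counts of 0, which a stricter threshold could not change. With 1 library per condition, no value has a check against another cell or organ.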

Other observations

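Some genes of these cell types were looked up after their values were seen. *DLL4* and *NR2F2* among them also belong to the lists above. All but *CXCL12* had 0 reads in both hair cells, beside 85.8% of all crista genes without a read in either. *CSF1R* also acts in osteoclasts, the bone-resorbing relatives of macrophages. In the crista the osteoclast protease *CTSK* had 8485 estimated reads (253 TPM), the proton pump subunit *ATP6V0D2* 2583 reads (51.5 TPM), the receptor *TNFRSF11A* 2776 reads (14.3 TPM), the phosphatase *ACP5* 300 reads (14.4 TPM) and *DCSTAMP*, which acts in cell fusion, 151 reads (4.29 TPM). The ligand *TNFSF11* had 418 reads, and *OCSTAMP* was listed at 0. *CTSK* stood above *CD74* in TPM. Some of these genes are also made by other cells.

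Genes of arteries and veins were both read in the crista. The arterial *EFNB2*, *GJA5*, *DLL4* and *GJA4* lay at 5.98, 5.56, 3.89 and 2.86 TPM, and the venous *NR2F2*, which also acts outside vessels, at 36.8 TPM. Further endothelial genes were *FABP4* at 102, *TFPI* at 59.8, *CALCRL* at 41.1, *CD93* at 28.2 and *PTPRB* at 4.42 TPM. The cytokines *IL1B* and *IL10* and the chemokine *CCL5* were listed at 0, whereas the cytokine *IL18* had 787 reads. The chemokine *CXCL12* had 8309 reads in the crista and 7 (type I) and 5 (type II) in the hair cells, and its receptor *CXCR4* 1153, with 0 and 0. The leukocyte genes *HPGDS*, *IL2RG* and *RUNX1*, of which the last also acts outside blood, had 42.9, 33.2 and 1.85 TPM.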
